A study of Mus musculus with 6 samples.

Results

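The unfolded protein response and the integrated stress response were examined in activated mouse B cells through 40 genes, chosen by name from a list of stress sensors, ATF4 and CHOP genes, endoplasmic reticulum (ER) chaperones and ER-associated degradation factors. All 40 were found among the 55421 genes of the deposited table, and all 40 were among the 17640 genes tested. *Ddit3* has a second entry, which overlaps the first on the same strand and held a normalized count of 0 in all 6 libraries, so the values given here are those of the first entry. Splenic B cells were activated ex vivo for 24 h with LPS (5 µg/ml) and IL-4 (5 ng/ml), a treatment that all samples shared, and GFP+ cells were then sorted. Both groups came from C57BL6/J mice over 6 weeks of age that carried the CD21-cre transgene and the Rosa mT/mG reporter, in which Cre activity switches GFP on. The study used male and female mice by availability, and the sex of each of these mice is not known here. The control group (WT, genotype CD21-cre, n = 3 mice) had intact *Hnrnpl*, and the hnRNPL-deficient group (genotype hnRNPL F/F CD21-cre, n = 3 mice) also carried *Hnrnpl* alleles that Cre deletes. CD21-cre is active mostly in peripheral B cells, and cells that escaped deletion of both alleles cannot be told from the others by GFP.

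Proteins that enter the secretory pathway fold in the ER, where chaperones and disulfide isomerases assist them. When unfolded proteins build up, the sensors IRE1, PERK and ATF6 raise the chaperones and the degradation machinery, in part through the transcription factors XBP1 and ATF4. PERK is also one of the kinases that phosphorylate the translation factor eIF2 in the integrated stress response. GCN2, which senses lack of amino acids, is another such kinase. Phosphorylated eIF2 lowers translation in general and raises that of ATF4, which in turn switches on genes for amino acid supply and the pro-apoptotic factor CHOP. In B cells these pathways are known for the expansion of the ER as the cells turn to antibody secretion. Much of this control acts by phosphorylation, protein cleavage, splicing of the *Xbp1* mRNA or translation, which counts of reads per gene do not show.

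The libraries held between 40395186 and 75180749 reads on genes, and from 24009 to 26283 genes were detected. The targeted gene *Hnrnpl* had 24371, 25580 and 24174 normalized counts in WT, against 2178, 1519 and 1297 in hnRNPL-deficient cells (log2 fold change -3.93, SE 0.173, adjusted p = 2.23e-05 from limma). Values are normalized counts, the authors' read counts divided by a size factor for each library. Fold changes are on the log2(normalized count + 1) scale, hnRNPL-deficient minus WT, and were tested with limma over all 17640 genes with a mean of at least 10. A gene was called higher or lower where it changed by at least 1.5-fold with an adjusted p (Benjamini-Hochberg, over all tested genes) under 0.1. For any 1 gene, exact permutation of 3 mice against 3 (two-sided) gives a p of 0.1 at the lowest. In sorted cells as in any bulk sample, fewer cells of a type and less RNA per cell cannot be told apart. Of the 6 B cell markers 0 were called by limma, edgeR or DESeq2. By limma 3 had an unadjusted p under 0.05, for which the share of all tested genes was not counted. The summed level of the 6 markers was 274249 to 350783 normalized counts in WT and 266462 to 312659 in hnRNPL-deficient libraries. Of the markers of other cell types, the macrophage gene *Adgre1* was higher, with 236, 282 and 315 against 1217, 1337 and 1369 normalized counts, while the macrophage genes *Lyz2* and *Cd14* were at 0 in 5 of the 6 libraries. The 6 macrophage and monocyte markers summed to 260 to 331 normalized counts in WT and 1239 to 1382 in hnRNPL-deficient libraries, nearly all of it *Adgre1*. The plasma cell gene *Jchain* was lower, with 117, 109 and 26 against 23.4, 7.07 and 13.7 normalized counts, and was 1 of 5 tested plasma cell markers to be called. The NK cell gene *Prf1* (33.7, 30.3 and 26 against 65.8, 43.4 and 61.7) and the erythroid gene *Hbb-bt* (15.1, 14.7 and 6.88 against 36.1, 56.5 and 39.7) were called higher, and the T cell gene *Cd8b1* (30.2, 25.1 and 31.4 against 4.51, 15.1 and 5.48) was called lower. Of the 2 T cell markers tested, the other, *Trac*, went the opposite way, with 13.9, 18.2 and 17.6 against 21.6, 25.2 and 32.9. It was not called (log2 fold change 0.64, adjusted p = 0.256 from limma). The marker sums of WT and hnRNPL-deficient libraries were 26.8 to 33.7 and 46.4 to 73 normalized counts for NK cells, 17.6 to 38.3 and 55 to 84.8 for erythroid cells, and 49.9 to 55.1 and 37.9 to 43.9 for T cells, while neutrophil markers summed to at most 2.74. The part of other cell types in the results below was not tested.

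The promoters of these genes were searched for exact matches to the classical stress elements. RefSeq promoter sequences (GRCm38.p6, from 250 bases before to 50 bases after the start site) were found for 35 of the 40 genes, and each was searched on both strands. A variant of an element, or one outside this window, would be missed, so a gene without a match may still hold one. The ER stress response element, which ATF6 and XBP1 are known to bind and which was first described in ER chaperone genes, was searched as CCAAT followed after 9 bases by CCACG. It was present in 10 of the 35 genes, compared with 0.137% of all 27025 genes with a promoter. Of the 15 ER folding genes with a promoter 8 held it, as did 2 of the 7 ER-associated degradation genes, and it was in 0 of the 5 sensors and 0 of the 8 ATF4 and CHOP genes. The elements are shown because their holders make up much of the chaperone group described below. Each is read along the strand that carries it, with its fixed ends in capitals, and *Hsp90b1* has a pair of them, one farther from and one nearer to the start site. All 11 lie before the start site, between 212 and 26 bases from it.
Hspa5, chr2:34772025-34772043: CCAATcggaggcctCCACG
Hsp90b1, far, chr10:86705638-86705656: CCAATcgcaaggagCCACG
Hsp90b1, near, chr10:86705533-86705551: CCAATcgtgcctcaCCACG
Calr, chr8:84847075-84847093: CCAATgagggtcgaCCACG
Canx, chr11:50325800-50325818: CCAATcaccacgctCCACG
Pdia6, chr12:17266491-17266509: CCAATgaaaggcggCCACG
Dnajc3, chr14:118937827-118937845: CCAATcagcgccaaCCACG
Creld2, chr15:88819520-88819538: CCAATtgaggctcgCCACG
Ero1lb, chr13:12565682-12565700: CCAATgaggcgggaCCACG
Syvn1, chr19:6046532-6046550: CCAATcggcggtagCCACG
Derl3, chr10:75893242-75893260: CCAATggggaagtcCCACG

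The C/EBP-ATF response element, to which ATF4 is known to bind, was searched as TGATGNAA and was present in 5 of the 35 genes (*Atf3*, *Trib3*, *Chac1*, *Asns* and *Herpud1*) and in 4.51% of all genes with a promoter. A second form of the ER stress response element, ATTGG followed after 1 base by CCACG, was in *Herpud1* and *Dnajb11* and in 0.0444% of all genes. The unfolded protein response element TGACGTGG was in 0 of the 35 and in 0.714% of all genes. The CCACG end that both forms of the ER stress response element share was, on its own, in 27 of the 35 and in 35.5% of all genes. The stretches of 150 bases that end at the start site are shown for *Hspa5*, the most abundant member holding an element in that window, for *Pdia6* and *Dnajc3*, which had an adjusted p under 0.1, and for *Asns* and *Atf3*, which were called. They lie at chr2:34771940-34772089 (plus strand), chr12:17266439-17266588 (plus strand), chr14:118937782-118937931 (plus strand), chr6:7693210-7693359 (minus strand) and chr1:191183334-191183483 (minus strand). Capitals mark the ER stress response element in the first 3 and the C/EBP-ATF response element in the last 2, and each sequence runs 5′ to 3′ along the gene's strand.
Hspa5: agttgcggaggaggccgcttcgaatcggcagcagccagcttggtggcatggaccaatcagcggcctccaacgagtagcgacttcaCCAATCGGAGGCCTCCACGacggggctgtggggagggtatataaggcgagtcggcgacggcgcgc
Pdia6: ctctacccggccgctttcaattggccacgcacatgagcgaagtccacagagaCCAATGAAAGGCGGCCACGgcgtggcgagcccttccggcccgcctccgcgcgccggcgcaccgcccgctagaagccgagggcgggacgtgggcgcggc
Dnajc3: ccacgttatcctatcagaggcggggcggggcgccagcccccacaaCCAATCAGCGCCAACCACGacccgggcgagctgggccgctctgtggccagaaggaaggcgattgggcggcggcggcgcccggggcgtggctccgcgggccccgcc
Asns: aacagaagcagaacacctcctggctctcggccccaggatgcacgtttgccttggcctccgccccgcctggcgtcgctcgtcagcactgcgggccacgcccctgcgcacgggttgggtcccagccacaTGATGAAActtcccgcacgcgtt
Atf3: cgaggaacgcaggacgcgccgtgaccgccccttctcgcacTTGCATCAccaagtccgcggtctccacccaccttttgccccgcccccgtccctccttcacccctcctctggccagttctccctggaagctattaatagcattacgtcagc

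Most of the 40 genes differed little between the groups, and the differences that passed the test ran in both directions. By limma 1 gene was called higher (*Asns*), beside 7.28% of all tested genes, and 3 were called lower (*Eif2ak4*, *Atf3* and *Derl3*), beside 4.08% of all tested genes. At an adjusted p under 0.1 with any fold there were 4 higher genes (*Asns*, *Atf6*, *Ern1* and *Eif2ak3*), beside 10.0% of all genes, and 6 lower ones (*Eif2ak4*, *Atf3*, *Derl3*, *Manf*, *Dnajc3* and *Pdia6*), beside 7.97% of all genes. The 3 hnRNPL-deficient values lay above all WT values for 7 genes (17.7% of all tested genes) and below them for 13 (16.3% of all tested genes). In GRCm38 the called genes lie at chr6:7675169-7693254 (*Asns*), chr2:118388618-118475234 (*Eif2ak4*), chr1:191170296-191218039 (*Atf3*) and chr10:75893413-75895941 (*Derl3*). The median log2 fold change of the 40 genes was -0.15, and that of all tested genes was -0.03. The count tests on the recovered reads of 5 libraries, which leave out hnRNPL-deficient library 2, called fewer members. Limma without that library also called fewer, 0 higher and 2 lower. The effect of the count test was not separated from that of the missing library. By edgeR 0 members were called higher (6.49% of all tested genes), with 5 higher at an unadjusted p under 0.05, and 2 lower (3.28%), and by DESeq2 1 was called higher (6.69%) and 2 lower (4.09%). In both, the lower members called were *Eif2ak4* and *Derl3*. For the unadjusted limit, the share of all tested genes was not counted.

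**Figure D1:**
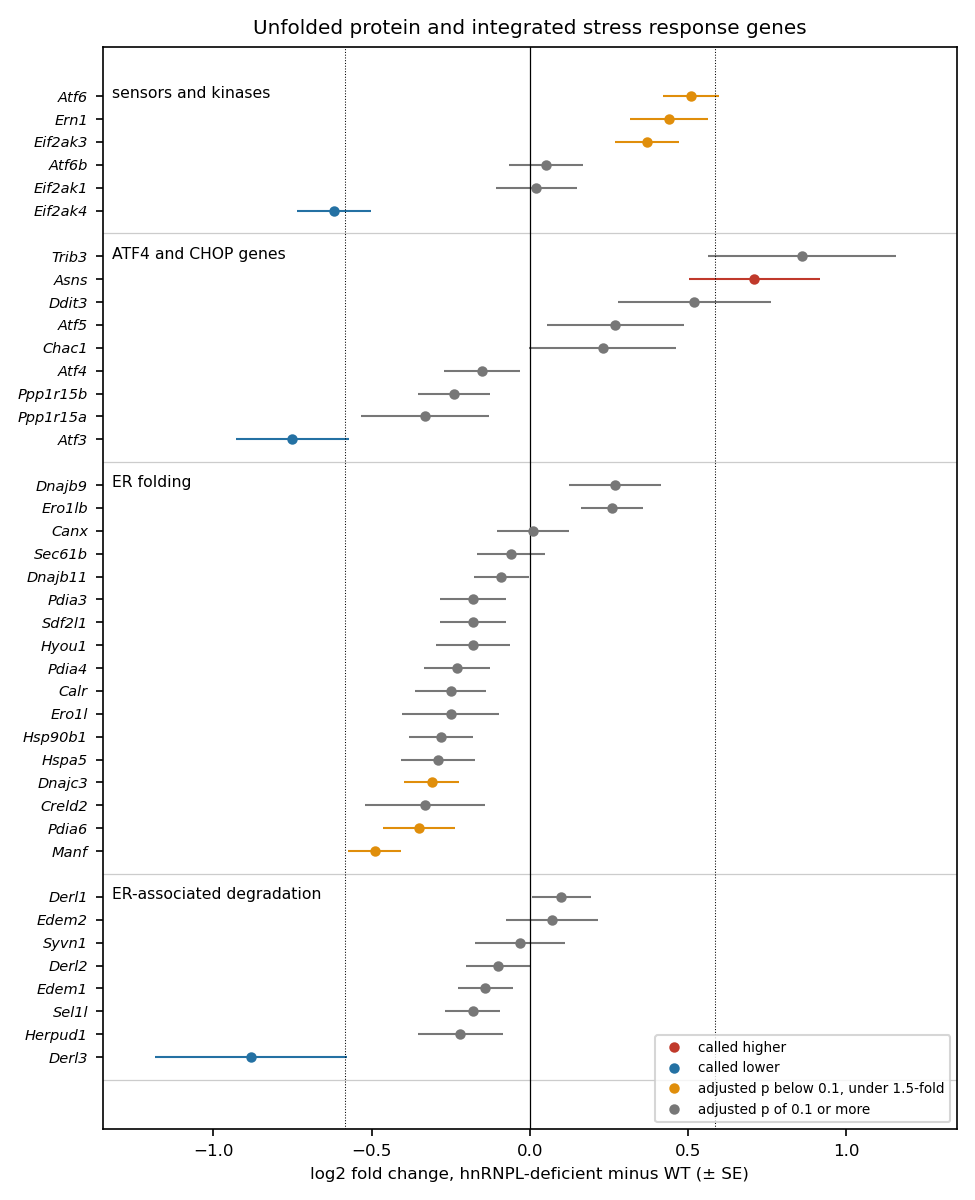
Log2 fold change (x axis, hnRNPL-deficient minus WT, from limma) of the 40 genes, grouped by role and ordered by value; bars are 1 standard error, n = 3 mice per group, and dotted lines mark a 1.5-fold change. The ER folding genes lie between -0.49 and 0.27, inside the dotted lines, while *Asns* and *Trib3*, which was not called, are to the right and *Eif2ak4*, *Atf3* and *Derl3* are to the left of them.

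Levels spanned a wide range. Per kb of exon, the WT mean was highest for *Calr*, which encodes the calcium-binding chaperone calreticulin, at 22667 normalized counts per kb, and for *Hspa5*, which encodes the central ER chaperone BiP, at 20237. It was lowest for *Ern1*, the gene of IRE1, at 64.6 normalized counts per kb. The 6 genes with the highest WT level per kb were all of the ER folding group (*Calr*, *Hspa5*, *Canx*, *Hsp90b1*, *Pdia3* and *Pdia4*), and the next was *Atf4*, at 5987 per kb. The other ATF4 and CHOP genes were between 177 (*Trib3*) and 2727 (*Ppp1r15b*) normalized counts per kb in WT. The sensors *Atf6*, *Atf6b* and *Eif2ak1* were close to each other in WT, at 1063, 1069 and 1000 per kb, and in hnRNPL-deficient cells *Atf6* was at 1514 per kb while *Atf6b* was at 1105 and *Eif2ak1* at 1009.

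**Figure D2:**
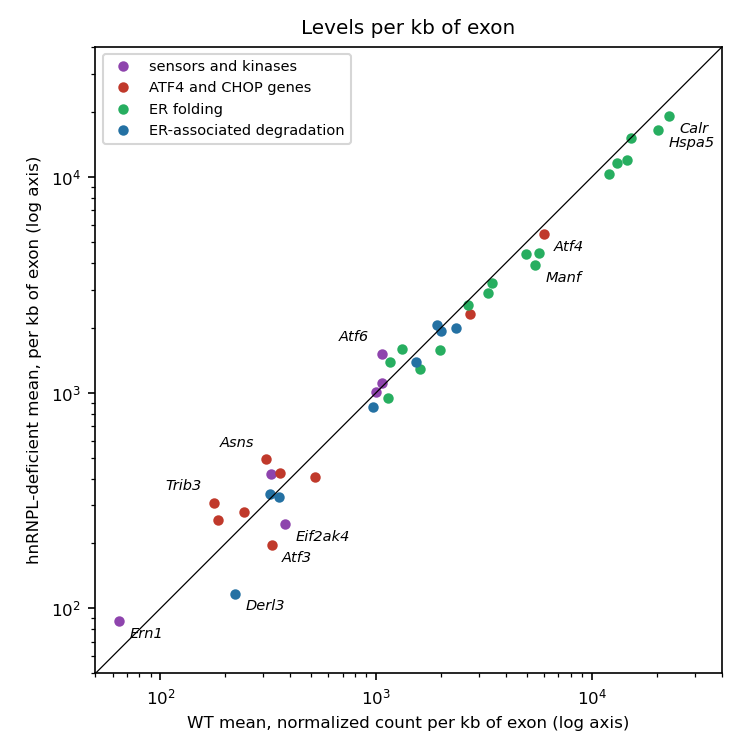
Mean normalized count per kb of exon in WT (x axis) and hnRNPL-deficient libraries (y axis) of the 40 genes, n = 3 mice per group, both on log axes, with the line of equal levels. The points run from *Ern1* (64.6 in WT) to *Calr* (22667 in WT), and *Asns*, *Trib3* and *Atf6* lie above the line while *Eif2ak4*, *Atf3* and *Derl3* lie below it.

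The sensor genes *Atf6*, *Ern1* and *Eif2ak3* had higher means in hnRNPL-deficient cells, all under 1.5-fold and not called in the main test. *Eif2ak4*, the gene of the amino acid sensor GCN2, was called lower. *Atf6* encodes a membrane-bound transcription factor that is released by cleavage upon ER stress. It had 9734, 9704 and 9990 normalized counts in WT and 13313, 13679 and 14930 in hnRNPL-deficient libraries. All hnRNPL-deficient values were thus above all WT values, and the WT libraries differed from each other by 1.03-fold at most. The log2 fold change was 0.51 (SE 0.0889, adjusted p = 0.00967 from limma), which is under 1.5-fold, and the adjusted p stayed at 0.0509 or below in all 16 alternatives. Its paralog *Atf6b* had 2683, 3168 and 2989 against 3123, 3329 and 2688 normalized counts. The groups overlapped (log2 fold change 0.05, SE 0.117, adjusted p = 0.831).

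*Ern1* encodes IRE1, the kinase and endonuclease that splices the *Xbp1* mRNA, and had 538, 529 and 516 normalized counts in WT and 662, 726 and 759 in hnRNPL-deficient libraries. *Eif2ak3* encodes PERK and had 1858, 1996 and 2004 against 2343, 2596 and 2665. For both, the groups did not overlap, and the rise was under 1.5-fold. The log2 fold changes were 0.44 for *Ern1* (SE 0.124, adjusted p = 0.057) and 0.37 for *Eif2ak3* (SE 0.101, adjusted p = 0.0475). These adjusted p-values were not stable when single libraries were left out. Without WT library 2 or 3, or hnRNPL-deficient library 2 or 3, they were between 0.118 and 0.178 for *Ern1* and between 0.103 and 0.134 for *Eif2ak3*. By edgeR the adjusted p was 0.111 for *Ern1* and 0.0993 for *Eif2ak3*, and by DESeq2 it was 0.0637 and 0.0704.

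*Eif2ak4* encodes GCN2, the eIF2 kinase that responds to uncharged tRNA. It had 2576, 3046 and 2802 normalized counts in WT and 1619, 1946 and 1926 in hnRNPL-deficient libraries, with no overlap. The mean of hnRNPL-deficient cells was 65.2% of that of WT (log2 fold change -0.62, SE 0.117, adjusted p = 0.0135 from limma), close to the limit of 1.5-fold. Without WT library 2 the log2 fold change was -0.56 and without hnRNPL-deficient library 1 it was -0.53, and the gene was then no longer called. The call was also lost with equal library totals (-0.56) and with quantile normalization (-0.58), although its adjusted p was at most 0.0617 in all 16 alternatives. *Eif2ak1* encodes HRI, the heme-regulated eIF2 kinase, and had 6676, 4910 and 5420 against 5886, 5267 and 6006 normalized counts. The groups overlapped (log2 fold change 0.02, SE 0.128, adjusted p = 0.929).

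The ATF4 and CHOP genes did not move together, with 5 of 9 higher and 4 lower on average. By limma 1 was called in each direction, while 7.28% of all tested genes were called higher and 4.08% lower. *Atf4* encodes the central transcription factor of the integrated stress response and had 12379, 15268 and 14707 normalized counts in WT and 11461, 14137 and 12668 in hnRNPL-deficient libraries. The groups overlapped (log2 fold change -0.15, SE 0.12, adjusted p = 0.469), and the value was 0.01 with quantile normalization. *Asns* encodes asparagine synthetase, a classical ATF4 target with the element shown above. It had 606, 1139 and 800 normalized counts in WT and 1303, 1368 and 1367 in hnRNPL-deficient libraries. All hnRNPL-deficient values were above all WT values, and the spread was in the WT libraries, which differed by 1.88-fold, against 1.05-fold in the hnRNPL-deficient ones. The log2 fold change was 0.71 (SE 0.208, adjusted p = 0.0615 from limma). The call was lost when any library other than WT library 2 was left out, with adjusted p-values between 0.11 and 0.165, and without WT library 1 the log2 fold change was 0.49. It was also lost by edgeR (adjusted p = 0.133) and kept by DESeq2 (adjusted p = 0.0786), both without hnRNPL-deficient library 2. Limma without that library gave an adjusted p of 0.131.

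*Trib3* encodes a pseudokinase that restrains AKT and ATF4 signaling and had 219, 488 and 418 normalized counts in WT and 705, 751 and 511 in hnRNPL-deficient libraries. *Ddit3* encodes the pro-apoptotic factor CHOP and had 212, 357 and 374 against 376, 435 and 514. The groups did not overlap for either gene, but neither passed the test. The log2 fold changes were 0.86 for *Trib3* (SE 0.296, adjusted p = 0.1001) and 0.52 for *Ddit3* (SE 0.241, adjusted p = 0.203). *Trib3* was called in 5 of its 16 alternatives. Reads of *Ddit3* that fall where its entries overlap may not have been counted. *Chac1*, which encodes a glutathione-degrading enzyme induced through ATF4, had 269, 476 and 453 against 406, 518 and 447 normalized counts (log2 fold change 0.23, SE 0.232, adjusted p = 0.558). *Atf5*, a transcription factor translated under eIF2 phosphorylation, had 509, 859 and 771 against 861, 982 and 698 (log2 fold change 0.27, SE 0.216, adjusted p = 0.46). For *Chac1* and *Atf5* the groups overlapped.

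WT library 1 held the lowest WT value in 7 of the 9 ATF4 and CHOP genes, and in 6 of the 8 ER-associated degradation genes, 8 of the 17 ER folding genes and 3 of the 6 sensors and kinases. This was the case for 41.3% of all tested genes. Without that library, the median log2 fold change of the 9 ATF4 and CHOP genes was -0.03, against 0.23 with all libraries, that of *Trib3* was 0.52 and that of *Chac1* was -0.03.

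*Atf3* encodes a stress-induced repressor of the ATF family, and its promoter also holds the C/EBP-ATF element. It ran against *Asns*, with 729, 750 and 639 normalized counts in WT and 472, 326 and 472 in hnRNPL-deficient libraries. The groups did not overlap, and the hnRNPL-deficient mean was 59.9% of that of WT (log2 fold change -0.75, SE 0.178, adjusted p = 0.0309 from limma). The call was lost without WT library 2 (adjusted p = 0.103), and also without hnRNPL-deficient library 2, which was the lowest library (log2 fold change -0.58, just under 1.5-fold). *Ppp1r15a* and *Ppp1r15b* encode GADD34 and CReP, the stress-induced and the constitutive subunits of the eIF2 phosphatase. *Ppp1r15a* had 1142, 1551 and 1881 against 1030, 1452 and 1110 normalized counts (log2 fold change -0.33, SE 0.202, adjusted p = 0.325). *Ppp1r15b* had 16071, 16043 and 13655 against 14330, 12738 and 11641 (log2 fold change -0.24, SE 0.114, adjusted p = 0.212). Both were lower on average with overlapping groups, and neither passed the test.

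**Figure D3:**
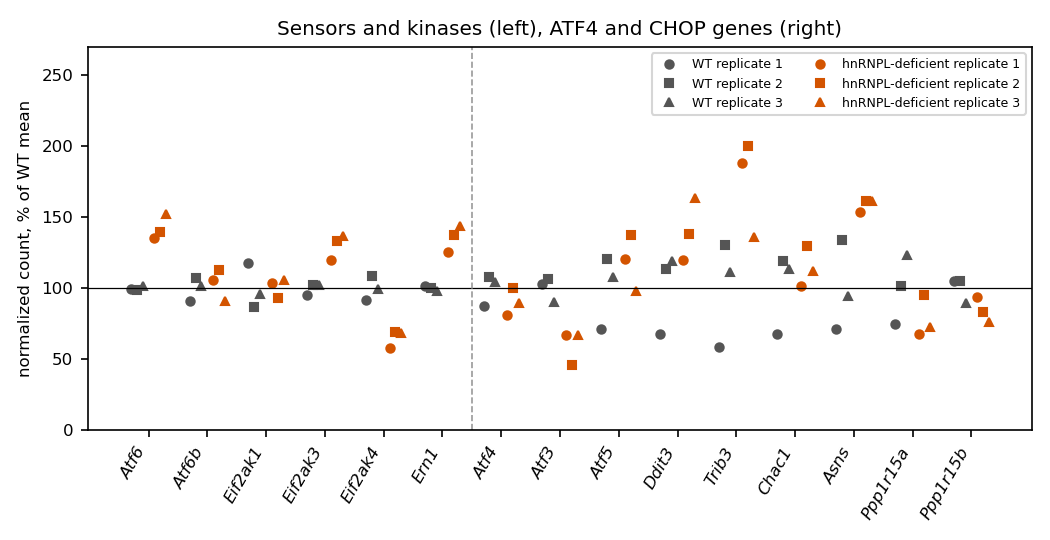
Normalized count in each library as a percent of the gene's WT mean (y axis) for the 6 sensors and kinases and the 9 ATF4 and CHOP genes; grey marks are the 3 WT and orange marks the 3 hnRNPL-deficient libraries, with 1 marker shape per replicate number. WT replicate 1 (grey circle) is the lowest WT mark in 7 of the 9 genes on the right, and *Atf6*, *Eif2ak3* and *Ern1* have all orange marks above the grey ones.

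The ER folding genes had slightly lower means in hnRNPL-deficient cells. Of 17 genes, 14 had a lower and 3 a higher mean, beside 9304 of 17640 tested genes with a lower mean. The median log2 fold change of the 17 genes was -0.23 (-0.11 with quantile normalization), and 0 were called in either direction by limma, edgeR or DESeq2. At an unadjusted p under 0.05, limma gave 1 higher and 5 lower genes, edgeR 1 and 4, and DESeq2 1 and 6. The share of all tested genes at that unadjusted limit was not counted, so these numbers cannot be read against it. Together they took 0.759% to 0.802% of all normalized counts in the WT libraries and 0.695% to 0.707% in the hnRNPL-deficient ones, which do not overlap. For 9 genes all hnRNPL-deficient values were below all WT values (16.3% of all tested genes), and for *Ero1lb* all were above (17.7% of all tested genes). At an adjusted p under 0.1 there were 3 genes, all lower, namely *Manf*, *Dnajc3* and *Pdia6*, beside 7.97% of all tested genes.

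*Manf* encodes a secreted ER stress-inducible factor that binds BiP. It had 19119, 19509 and 19221 normalized counts in WT and 13656, 14060 and 13475 in hnRNPL-deficient libraries. The libraries within a group were within 1.04-fold of each other, and the groups stood well apart. The mean was 28.8% below that of WT (log2 fold change -0.49, SE 0.0835, adjusted p = 0.00881 from limma), and the adjusted p was at most 0.0509 in all 16 alternatives. In GENCODE vM21 an exon of *Manf* overlaps an exon of *Rbm15b* on the same strand, and *Rbm15b* had 6393, 7172 and 6715 against 5435, 5452 and 4657 normalized counts (log2 fold change -0.39, adjusted p = 0.0457). Reads in the shared stretch cannot be assigned to 1 of them, and the part of this in the difference was not tested.

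*Dnajc3* encodes p58IPK, an ER co-chaperone, and had 7860, 8735 and 7973 normalized counts in WT and 6644, 6631 and 6560 in hnRNPL-deficient libraries. *Pdia6*, a protein disulfide isomerase, had 19435, 23965 and 20252 against 17349, 17483 and 15066. The groups did not overlap for either gene. The log2 fold changes were -0.31 for *Dnajc3* (SE 0.0879, adjusted p = 0.0583) and -0.35 for *Pdia6* (SE 0.115, adjusted p = 0.0895). When 1 library was left out, neither stayed under 0.1 except without WT library 1, and the adjusted p-values without any of the others were between 0.101 and 0.214 for *Dnajc3* and between 0.137 and 0.267 for *Pdia6*.

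Other abundant chaperones had lower means without passing the test. *Hspa5*, the gene of BiP, had 94476, 82164 and 80112 normalized counts in WT and 69247, 64980 and 75250 in hnRNPL-deficient libraries. *Hsp90b1*, which encodes GRP94, the ER member of the HSP90 family, had 61513, 61175 and 53866 against 49236, 48566 and 47286. For both, all hnRNPL-deficient values were below all WT values, by 18.4% and 17.8% on average. The log2 fold changes were -0.29 for *Hspa5* (SE 0.116, adjusted p = 0.147) and -0.28 for *Hsp90b1* (SE 0.102, adjusted p = 0.116). *Calr*, *Pdia3*, *Pdia4* and *Dnajb11*, which encode calreticulin, further disulfide isomerases and a BiP co-chaperone, also had no overlap, with log2 fold changes of -0.25, -0.18, -0.23 and -0.09, and adjusted p-values from 0.187 to 0.521. The groups overlapped for *Hyou1*, an HSP70 family member of the ER (-0.18), *Creld2*, a stress-induced ER protein (-0.33), *Sdf2l1*, a partner of BiP co-chaperones (-0.18), *Sec61b*, a subunit of the translocation channel (-0.06), and *Ero1l*, an oxidoreductase that feeds the disulfide isomerases (-0.25), with adjusted p-values from 0.304 to 0.733. With quantile normalization *Dnajb11* and *Sec61b* turned direction, both to 0.02. In GENCODE vM21 exons of *Hsp90b1* overlap, on the same strand, the non-coding transcript *Gm15344*, which had 135, 381 and 372 against 190, 234 and 282 normalized counts, and a miRNA gene. Exons of *Pdia4* overlap a miRNA gene.

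Of the 3 ER folding genes that were higher on average, *Canx*, which encodes the lectin chaperone calnexin, had 78141, 71260 and 64232 against 76127, 67541 and 70418 normalized counts. Its log2 fold change was 0.01 (SE 0.115, adjusted p = 0.979), the smallest in size of the group. *Ero1lb*, the second ER oxidoreductase gene, had 7314, 7603 and 8245 against 8473, 9526 and 9680 (log2 fold change 0.26, SE 0.0978, adjusted p = 0.133). *Dnajb9*, which encodes the BiP co-chaperone ERdj4, had 3790, 3175 and 3079 against 4112, 3349 and 4731 (log2 fold change 0.27, SE 0.145, adjusted p = 0.269). *Ero1lb* did not overlap, and *Canx* and *Dnajb9* did.

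The 10 genes that hold the ER stress response element had a median log2 fold change of -0.29, with 8 lower and 2 higher. Of these, 3 had an adjusted p under 0.1, all lower (*Pdia6*, *Dnajc3* and *Derl3*). At that limit 7.97% of all tested genes were lower and 10.0% were higher. The 25 genes with a promoter and no such element had a median of -0.09, with 14 lower and 11 higher, of which 2 and 3 had an adjusted p under 0.1. Within the ER folding group the medians were -0.29 for the 8 holders and -0.18 for the 7 others. The 7 others include *Dnajb11*, and the 25 genes include *Dnajb11* and *Herpud1*, which hold the second form of the element. Outside the 40 genes, 27 genes hold the element in its first form and 10 of those were tested. These 10 had a median of 0.05, 4 lower and 6 higher, and 1 in each direction with an adjusted p under 0.1. These values describe the genes, and the difference between holders and others was not tested.

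Of the 8 ER-associated degradation genes 1 was called lower, beside 4.08% of all tested genes, and the others did not pass the test. Their median log2 fold change was -0.12, with 6 lower and 2 higher. *Derl3* encodes a derlin of the channel that returns misfolded proteins to the cytosol, and had 269, 539 and 522 normalized counts in WT and 176, 297 and 229 in hnRNPL-deficient libraries. WT library 1 was below hnRNPL-deficient library 2, so the groups overlapped. The log2 fold change was -0.88 (SE 0.303) with an adjusted p of 0.09987 from limma, at the edge of the threshold. The call was lost in 8 of 16 alternatives, among them those without WT library 2 (adjusted p = 0.246), WT library 3 (0.276), hnRNPL-deficient library 1 (0.214) and hnRNPL-deficient library 3 (0.184).

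Its paralog *Derl1* had 5887, 6815 and 6366 normalized counts in WT and 6907, 6920 and 6619 in hnRNPL-deficient libraries (log2 fold change 0.10, SE 0.093, adjusted p = 0.513). *Derl2* had 2713, 3033 and 2794 against 2841, 2667 and 2444 (log2 fold change -0.10, SE 0.103, adjusted p = 0.549). For both paralogs the groups overlapped. *Syvn1* encodes the ubiquitin ligase HRD1, and *Sel1l* encodes its partner in the HRD1 complex. *Sel1l* had 8164, 8775 and 7954 against 7149, 7439 and 7393 (log2 fold change -0.18, SE 0.0873, adjusted p = 0.228), with no overlap. *Syvn1* had 7735, 10879 and 10440 against 9043, 10362 and 8890 (log2 fold change -0.03, SE 0.142, adjusted p = 0.927). Its groups overlapped, and its direction turned with equal library totals (0.03) and with quantile normalization (0.09). *Herpud1*, a stress-induced partner of that complex, had 4516, 6217 and 5638 against 4243, 5034 and 4718 (log2 fold change -0.22, SE 0.134, adjusted p = 0.337). Of the mannosidase-like genes, which mark glycoproteins for degradation, *Edem1* was lower without overlap (log2 fold change -0.14, SE 0.0879, adjusted p = 0.33) and *Edem2* overlapped (0.07, SE 0.145, adjusted p = 0.777).

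**Figure D4:**
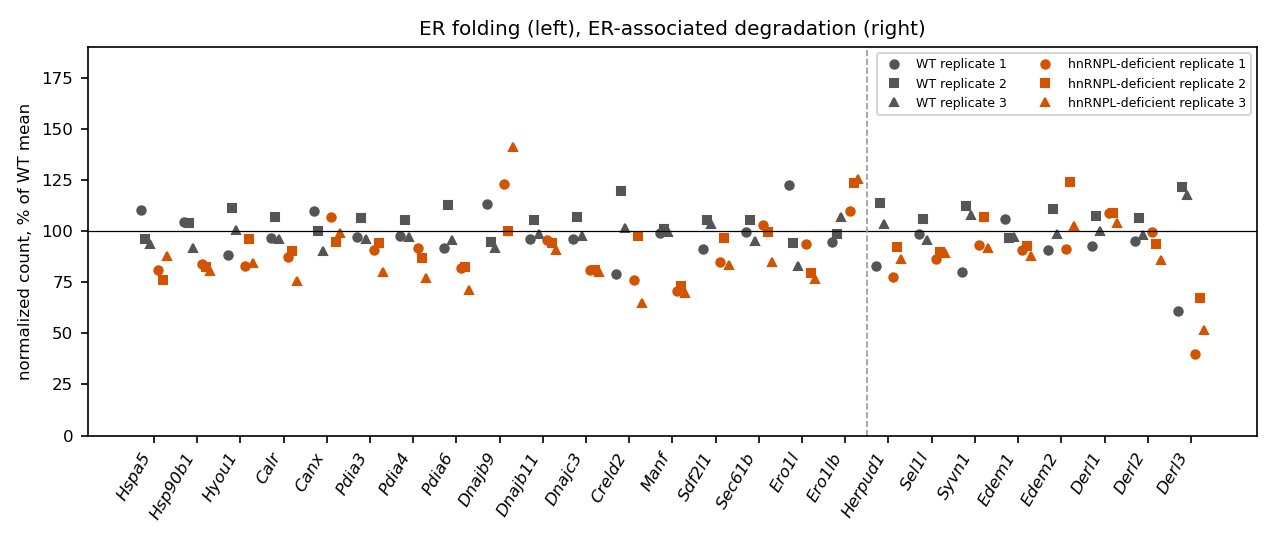
Normalized count in each library as a percent of the gene's WT mean (y axis) for the 17 ER folding and the 8 ER-associated degradation genes; grey marks are the 3 WT and orange marks the 3 hnRNPL-deficient libraries. All orange marks lie below the grey ones for 9 ER folding genes (16.3% of all tested genes), with *Manf* the most separated. *Derl3* has the widest spread among WT libraries (2-fold).

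The wider stress pathways were read from 5 further gene lists. Of 18 tested other ATF4 targets, 3 were called higher and 2 lower (7.28% and 4.08% of all tested genes), with a median log2 fold change of -0.28. At an adjusted p under 0.1 there were 3 higher and 8 lower (10.0% and 7.97% of all tested genes). The higher ones were *Ddit4*, *Sesn2* and *Jdp2*. *Ddit4*, an mTORC1 inhibitor, had 624, 457 and 487 normalized counts in WT and 1706, 1343 and 1536 in hnRNPL-deficient libraries (log2 fold change 1.55, SE 0.158, adjusted p = 0.00105 from limma). *Sesn2*, which encodes the leucine sensor sestrin 2, had 882, 1163 and 1074 against 2999, 2942 and 2649 (log2 fold change 1.47, SE 0.129, adjusted p = 0.000528). Both are also known targets of p53. Their groups stood far apart, with every hnRNPL-deficient value above all WT values. *Jdp2*, an AP-1 family repressor, was at low counts, with 3.48, 13 and 19.9 against 45.1, 43.4 and 26 (log2 fold change 1.80, SE 0.575, adjusted p = 0.0814).

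The lower ATF4 targets were enzymes and transporters of amino acid and one-carbon metabolism. *Mthfd2*, a mitochondrial folate enzyme, had 4503, 4799 and 4282 against 2958, 3295 and 2507 normalized counts (log2 fold change -0.64, SE 0.12, adjusted p = 0.0131). *Pycr1*, of proline synthesis, had 412, 539 and 476 against 233, 275 and 267 (log2 fold change -0.87, SE 0.165, adjusted p = 0.0134). *Psat1*, *Phgdh*, *Shmt2*, *Slc7a5*, *Slc3a2* and *Slc7a1* were lower at an adjusted p under 0.1 and under 1.5-fold, with log2 fold changes from -0.53 to -0.29. ATF4 target genes were thus found on both sides, *Asns*, *Ddit4*, *Sesn2* and *Jdp2* higher and *Mthfd2* and *Pycr1* lower.

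Of the 9 genes of eIF2, eIF2B and the kinase PKR, 0 were called in either direction by limma, edgeR or DESeq2. Each gave 2 lower genes at an unadjusted p under 0.05, for which the share of all tested genes was not counted. By limma 1 had an adjusted p under 0.1 (*Eif2s2*, log2 fold change -0.42, adjusted p = 0.0604), beside 7.97% of all tested genes that were lower at that limit. *Eif2s1*, the gene of the phosphorylated subunit, had 19209, 15592 and 14131 against 14568, 12485 and 12208 normalized counts. Its groups overlapped (log2 fold change -0.31, SE 0.133, adjusted p = 0.174).

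Of 35 tested XBP1 and secretory pathway genes 1 was called, lower, beside 4.08% of all tested genes, and the median log2 fold change was -0.05. *Xbp1* had 12581, 14650 and 14416 against 14049, 14600 and 11815 normalized counts, with overlapping groups (log2 fold change -0.04, SE 0.114, adjusted p = 0.833). The gene called was *Fkbp11*, a prolyl isomerase of secretory cells, at 60.3, 57.1 and 65 against 18, 24.2 and 12.3 normalized counts (log2 fold change -1.73, SE 0.327, adjusted p = 0.0134).

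All 11 tested cytosolic heat shock genes had a lower mean in hnRNPL-deficient libraries, with a median log2 fold change of -0.43, and 4 were called (*Hspa8*, *Hsph1*, *Hsp90aa1* and *Bag3*), beside 9304 of 17640 tested genes with a lower mean and 4.08% called lower. *Hspa8*, the gene of the constitutive HSC70, had 211654, 208010 and 190830 normalized counts in WT and 132857, 139828 and 105493 in hnRNPL-deficient libraries (log2 fold change -0.70, SE 0.141, adjusted p = 0.0176). The groups did not overlap. Its log2 fold change was larger in size than that of any ER folding gene, a difference that was not tested. Of the 10 genes of the mitochondrial unfolded protein response 8 were lower (median -0.28), and *Hspd1*, the gene of HSP60, was the 1 gene called (4.08% of all tested genes were called lower), at 58224, 50930 and 43874 against 34188, 30863 and 25970 normalized counts (log2 fold change -0.75, SE 0.143, adjusted p = 0.0142).

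**Figure D5:**
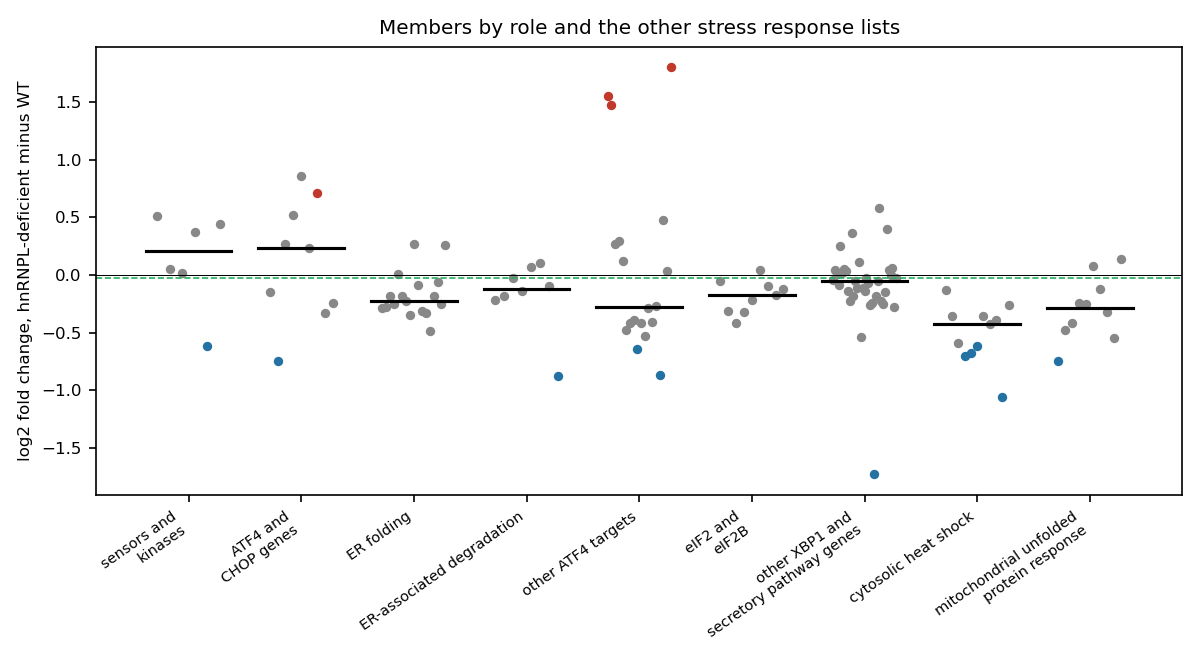
Log2 fold change (y axis, hnRNPL-deficient minus WT) of each tested gene in the 4 role groups of the 40 genes and in 5 other stress lists; red and blue points were called higher and lower, grey points were not called, black bars are medians and the dashed line is the median of all tested genes (-0.03). The ER folding median is -0.23 and the cytosolic heat shock median is -0.43, and the called ATF4 targets lie on both sides of 0.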

How the data were processed

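RNA from GFP+ sorted B cells was sequenced as 1 library per mouse (poly(A) selection, 100 bp paired-end). Per the study's methods and the labels, the authors trimmed reads with fastp 0.23.1, aligned them with STAR 2.7.9a to mm10, counted them per gene by strand with featureCounts and GENCODE vM23, and divided the counts by DESeq2 1.38.2 size factors. The deposited values are these normalized counts (a signal, which may be fractional). It also has columns of the authors' own comparison, deposited as log2 fold changes, test statistic (a score) and p-values, which were not used. All values in each library were whole multiples of its smallest one, and 100% came out as whole reads within a relative tolerance of 1e-06. The automatic test for whole reads did not accept the column of hnRNPL-deficient library 2, so edgeR 4.0.16 (quasi-likelihood, TMM) and DESeq2 1.42.0 were run as alternatives on the recovered reads of 5 libraries.

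The main test was limma 3.58.1 in R 4.3.3, with a trend of variance on mean level, on log2(normalized count + 1), with Benjamini-Hochberg adjustment over all tested genes. The pseudocount of 1 understates changes of low genes. P-values measure the spread between these mice. The 40 genes, the role groups and the 5 other lists were chosen with earlier results of these data known. The text describes all 40 genes, and of the other lists it describes called genes (at most 5 by smallest p) and *Xbp1*, *Ddit4*, *Sesn2* and *Eif2s1*. *Eif2s2* and the 6 metabolic genes named beside *Mthfd2* were named after their values were seen. Levels per kb use merged exon lengths of GENCODE vM21. In simulated data over 17640 genes for this comparison, limma called 19 of 50 genes changed by 1.5-fold, 45 of 50 changed by 2-fold, and 17 of 17440 unchanged genes. The simulated spread depended on the mean level alone, no library deviated as a whole, and the changed genes had a mean of at least 50.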

Additional observations from a re-analysis of the deposited data

How the results depend on the processing

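At 3 mice per group limma called 19 of 50 simulated 1.5-fold and 45 of 50 simulated 2-fold changes. A change of exactly 1.5-fold sits at the limit of the call rule, so many such genes fall short by construction. The ER folding genes changed by at most 1.4-fold, which the call rule of at least 1.5-fold leaves out whatever their adjusted p. Over the 40 genes and 16 alternatives, 589 of 640 values kept their direction and their side of the threshold, 23 lost and 6 gained the call, and 22 values of 9 genes turned direction. The causes were not tested.

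Over all genes, 830 higher and 478 lower genes were called without WT library 3, and 610 and 216 at an adjusted p under 0.05 and at least 2-fold (fewer genes by construction). With each library left out in turn, the numbers of called genes were from 830 to 1111 higher and from 478 to 696 lower. Of the 40 genes, 2 were called higher with a pseudocount of 5, with no filter on low values, with equal library totals and with quantile normalization, and 0 with no mean-variance trend, by edgeR and at the stricter threshold. With 1 library left out, from 0 to 2 were called higher and from 0 to 3 lower. Equal library totals left 1 called lower, and the stricter threshold left 0. The median of the sensors and kinases was 0.27 with equal library totals, and that of the ER folding genes was -0.11 with quantile normalization.

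The replicate numbers were shared by the groups, but the samples of 1 number did not all deviate together. The correlations of same-numbered libraries were 0.429, 0.32 and 0.066. WT libraries 1 and 2 correlated best with the hnRNPL-deficient library of their own number, and WT library 3 with hnRNPL-deficient library 2 (0.305). As the match held for only part of the libraries, the numbers were not taken as pairs in the main test. Whether they mark a shared batch was not tested. With the replicate number as a block, 2 of the 40 genes were called higher and 3 lower, and 7 higher and 14 lower had an adjusted p under 0.1. Calls also rose over all tested genes, to 1755 higher and 1018 lower with the block, from 1284 and 719 without it. The share of all tested genes with an adjusted p under 0.1 was not counted for the block.

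Among the genes that turned direction, *Chac1* had the largest main log2 fold change, 0.23, and it was at -0.03 without WT library 1. The turned values themselves were all small, at 0.09 or less in size. With quantile normalization these were *Atf4* (0.01), *Dnajb11* (0.02), *Sec61b* (0.02) and *Syvn1* (0.09), and with equal library totals *Syvn1* (0.03). By DESeq2 they were *Atf6b* (-0.01) and *Edem2* (-0.03), and by edgeR *Edem2* (-0.01). With 1 library left out, *Atf6b* ranged from -0.02 to 0.13, *Chac1* from -0.03 to 0.38, *Eif2ak1* from -0.08 to 0.15, *Canx* from -0.07 to 0.08, *Syvn1* from -0.18 to 0.07, *Edem2* from -0.05 to 0.18 and *Sec61b* from -0.12 to 0.02.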
